A study of Mus musculus with 14 samples.

Results

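Slit1, Slit2 and Slit3 encode secreted guidance proteins, and Robo1, Robo2, Robo3 and Robo4 encode the receptors of the same system. These 7 genes, 3 ligands and 4 receptors, were chosen by their values in control and mutant libraries of the data described here, out of 28316 gene symbols measured in the retina and 26528 in the brain. Since they were selected on that contrast, their levels and differences are given as a description, and nothing is read from how many of them a test across all genes called.

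The study examined what blood vessels of the retina and brain do when endothelial cells (ECs) lose TGF-beta signaling. Single nuclei were sequenced from whole retinas and from brain vascular fragments, which are short pieces of vessel enriched from minced brain. The mutant, called CKO, carried VEcadCreER with a conditional and a null allele of the TGF-beta receptor gene Tgfbr1 (VEcadCreER;Tgfbr1CKO/-) and received 4-hydroxy-tamoxifen (4HT) from postnatal day 3 to 5. Controls are labelled wild type; the study describes its controls as phenotypically wild type, typically VEcadCreER with 1 conditional and 1 normal allele, and the genotype and 4HT treatment of the sequenced control were not given in the sources used here.

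The promoter of VEcad, also called Cdh5, drives the recombinase in ECs, so the design leaves the conditional allele of neurons, glia and mural cells in place, beside the germline null. The methods give an age of postnatal day 14, whereas the series text speaks of young adults. Each brain library pooled vascular fragments of 2 brains, and the number of mice behind a retina library was not given in the sources used here. The deposited annotation has no label for ECs in the retina, so the cell type in which Tgfbr1 was deleted could be examined only in the brain.

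Slit proteins bind the outer domains of Robo receptors, with heparan sulfate proteoglycans as part of the complex, and classically repel growing axons and migrating cells. In the retina, Slit and Robo genes are known for steering ganglion cell axons and for roles in vessel growth, and Slit2 acting through Robo1 and Robo2 has been linked to pathological angiogenesis. Robo4 is known as the receptor of this family that endothelium makes.

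The retina gave 12 libraries, 1 control and 11 CKO, and the brain gave 1 control and 1 CKO library. Each value is a number of unique molecular identifiers (UMIs), which count captured RNA molecules once each. The retina control held 11513 nuclei with 30989702 UMIs, and its median nucleus had 1595 UMIs. Across the 11 CKO retinas the nuclei ranged from 104 through a median of 4210 to 18862, and the UMIs from 90449 through 16443337 to 55803724. Their medians per nucleus ran from 613 through 1830.5 to 4041, so depth differed between libraries of the same genotype. The smallest library, CKO replicate 4, gave no cell type enough nuclei to be used except immune cells.

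The brain control had 49798325 UMIs from 16649 nuclei (median 1541 each), and the brain CKO 31033373 UMIs from 14675 nuclei (median 1395 each). Of 77676 retinal nuclei, 20 carried 1 of 10 barcodes that occurred in more than 1 library, and in the brain this held for 4 of 31324 nuclei and 2 barcodes. Barcodes were therefore almost never shared between libraries. For each library, the UMIs of a gene were added up within each deposited cell type label and scaled to a common total, as CPM. A retinal label was used where a library had at least 50 nuclei of it, or 100 for Müller glia.

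The labels were checked against lists of defining markers. In the brain, nuclei labelled ECs had the highest summed level of the EC list, 12788 CPM in the control and 9559.6 CPM in the CKO, led by Flt1 at 3982 and 2745 CPM. They also carried 7901 and 6778 CPM of the pericyte list, led by Rgs5, and where these UMIs came from was not tested. Pericytes, astrocytes, oligodendrocytes and oligodendrocyte precursors (OPCs) each had the highest sum of their own list in both libraries. In vascular smooth muscle cells (vSMCs) the pericyte list, at 6576 and 6329 CPM, and the EC list, at 5678 and 5779 CPM, exceeded the vSMC list at 5194 and 4695 CPM. Across labels, vSMCs still had the highest vSMC sum in both libraries.

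Several brain labels went against their names. The label "glia" was led by the fibroblast list, with 4680 CPM in the control and 4273 CPM in the CKO, and its most abundant marker was Col1a2 at 1602 and 1703 CPM. Control microglia were led by their own list (7670 CPM), but the 11 CKO nuclei with this label had 2733 CPM of neuron markers and 1571 CPM of microglia markers. Across labels of the CKO, this was still the highest sum of microglia markers. In the label Glut_20 the neuron list, at 4682 and 4046 CPM, was not the highest list. What CP stands for in the labels CP_6 and CP_8 was not given; CP_6 was led by astrocyte markers at 1669 and 1658 CPM and CP_8 by neuron markers at 1485 and 1129 CPM.

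In the retina, rods, cones, rod bipolar cells (RBC), horizontal cells (HC), GABAergic amacrine cells (GABA_AC), retinal ganglion cells (RGC), astrocytes and immune cells each had the highest sum of the list that fits their label. Müller glia (MG) came after astrocytes for the Müller glia list, with 3100 CPM against 3198 CPM in the control. Cone bipolar cells (CBC) came after RBC for bipolar markers, and glycinergic amacrine cells (Gly_AC) after GABA_AC for amacrine markers, as shared lists allow. MG, CBC and Gly_AC therefore had their markers without leading the list. Within control MG, the rod list, at 4566 CPM, was higher than the Müller glia list.

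Tgfbr1 itself was read first. In brain ECs the control had 401 UMIs (69.1 CPM) and the CKO 431 UMIs (62.9 CPM), a ratio of 0.910 with a 95% interval from 0.792 to 1.05. Over all brain nuclei the values were 36.5 and 26.2 CPM, and over all retinal nuclei the control had 89.0 CPM while 10 CKO libraries ran from 71.4 through a median of 78.9 to 87.0 CPM. CKO replicate 4, with 104 nuclei, had 365 CPM. In MG of the CKO the design leaves the conditional allele in place beside the germline null. There the control had 97.3 CPM, above the CKO libraries with 55.8, 81.5 and 89.7 CPM as lowest, median and highest. The counts cover the whole gene rather than the deleted part, so they do not check the deletion.

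The members lie on 5 chromosomes of the mouse build GRCm39 (GENCODE annotation): Slit1 on chromosome 19 (41588676 to 41732268, minus strand), Slit2 on 5 (48140480 to 48465075, plus), Slit3 on 11 (35011789 to 35602786, plus), Robo1 and Robo2 on 16 (72105194 to 72844378, plus, and 73688727 to 75244270, minus), and Robo3 and Robo4 on 9 (37326965 to 37344737, minus, and 37313193 to 37326411, plus). Robo3 and Robo4 are separated by 553 bases and Robo1 and Robo2 by 844.3 kb. Spans run from 13.2 kb for Robo4 and 17.8 kb for Robo3 to 739.2 kb for Robo1 and 1555.5 kb for Robo2, and nuclear RNA holds introns. Levels of the members are therefore compared between cell types and libraries and not between members. The label checks above did rank lists of different genes within a label, so those rankings carry this limit. Of 40 annotated genes that overlap a member, 2 had UMIs. How the counting split UMIs among overlapping genes was not given in the sources used here.

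Slit2 and Slit3 each host a gene of the same microRNA inside the transcription unit, Mir218-1 on chromosome 5 (48381284 to 48381393, plus strand) and Mir218-2 on chromosome 11 (35507643 to 35507752, plus strand). It was not measured here, and its mature form is shown because both hosts give the same sequence. RefSeq, in a table of build GRCm38, gives it as follows, with the seed, bases 2 to 8, in capitals.
miR-218-5p: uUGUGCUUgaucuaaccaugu

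The retinal comparison asks in which neurons and glia the ligands and receptors were found, and how the control stood against CKO retinas whose own cell types kept the floxed Tgfbr1 allele unrecombined. Ganglion cells send the axons that leave the eye, bipolar cells link photoreceptors to ganglion cells, and amacrine and horizontal cells act across the layers. MG span the retina and touch its vessels. Rods are the most abundant cells, and shares in rods are given beside those of other types. They were chosen because these genes were low in rods throughout, so the contrast with rods was fixed in advance. It does not show how much free RNA reached nuclei of other types.

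Slit1 encodes a ligand made mainly by neurons. In HC the control had 288 CPM and the 3 CKO libraries used had 132, 173 and 325 CPM. The 7 CKO libraries with fewer HC nuclei ran from 91.3 to 240.5 CPM, all below the control. In RGC the control had 31.7 CPM and 10 CKO libraries ran from 20.4 through 42.9 to 59.0 CPM, and in GABA_AC the values were 40.0 CPM and 25.2, 39.0 and 48.6 CPM. HC therefore stood apart at the top, while RGC, GABA_AC, CBC (37.0 CPM in the control) and Gly_AC (15.0 CPM) overlapped one after the other. A UMI of Slit1 was present in 77.1% of control and 72.3% of CKO HC nuclei, against 0.0906% and 0.0901% of rods. Median depth was 8969.5 and 8203.5 UMIs in HC and 961 and 1104 in rods, and thinned to 500 UMIs per nucleus the HC shares were 14.52% and 12.03% and the rod shares 0.0110% in both. MG, RBC, rods and cones had medians of at most 2.39 CPM across the CKO libraries.

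Slit2 encodes the ligand most studied in vessels. CBC had 3142 CPM in the control, and 2427, 3138 and 3762 CPM as the lowest, median and highest of 10 CKO libraries. GABA_AC had 1679 CPM, and 1137, 1628 and 2024 CPM. These cell types stood apart from each other and from all below them, and in both the control lay inside the CKO range. A UMI was found in 40.0% and 44.6% of CBC nuclei and in 62.6% and 63.5% of GABA_AC nuclei, control first, against 0.0755% and 0.116% of rods. After thinning to 500 UMIs the order of these types by share was 30.2% and 32.2% in CBC against 34.2% and 35.6% in GABA_AC, which goes against the order of the CPM values, so no order is read from the shares.

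In the next types down, Slit2 ranges overlapped in a chain. RGC had 538 CPM in the control and 559.8, 673.5 and 926 CPM across the CKO libraries, so the control lay below all 10 and the CKO median was 1.25 times its value. Gly_AC had 427 CPM against 437, 523 and 703 CPM, again with the control below all 10. In RBC the control had 151 CPM and the CKO libraries 3.49, 112 and 150.2 CPM, which put the control above all 10, though its interval, 135 to 169 CPM, reached below the highest of them. The share of nuclei with a UMI, control first, was 73.8% and 69.1% in RGC, opposite to the CPM, 22.3% and 29.5% in Gly_AC and 30.4% and 18.8% in RBC. By CPM the control thus lay below the CKO libraries in RGC and Gly_AC and above them in RBC, by small margins. HC were also uneven, with 485 CPM in the control and 382.7, 873 and 30.2 CPM in CKO replicates 1, 2 and 5. The 7 CKO libraries with too few HC nuclei to be used ran from 288 to 1109.8 CPM, so the low value was seen in replicate 5 alone. Immune cells of the 4 CKO libraries used had 0, 517 and 728 CPM as lowest, median and highest. Libraries with too few of them had 1861 CPM in the control (213 UMIs from 29 nuclei) and 280 to 1244 CPM in 7 CKO libraries.

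MG had low Slit2. The control had 12.6 CPM, from 19 UMIs, and the CKO libraries ran from 7.97 CPM in replicate 3 through a median of 41.8 to 130.4 CPM in replicate 6. In 8 of 10 CKO libraries the value was above the control, and the CKO median was 3.32 times the control, yet the ranges overlapped. The share of MG nuclei with a UMI was 3.73% in the control and 5.17% in the CKO, or 0.556% and 1.44% after thinning. In the control's own batch the CKO values were 7.97, 40.8 and 60.8 CPM, which bracket the control as the pooled libraries do. Rods had 2.91 CPM in the control and a CKO median of 0.974 CPM.

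Slit3, the third ligand, was scarce in the retina, with 1837 UMIs over all libraries. RBC had 9.08 CPM in the control, from 19 UMIs, and 14.3, 23.1 and 46.6 CPM across 10 CKO libraries. The control lay below all 10, the CKO median was 2.55 times its value, and the control's counting interval of 5.47 to 14.2 CPM ended just under the lowest CKO library. The share of RBC nuclei was 3.32% and 8.08%, against 0.408% and 0.192% of rods, at median depths of 3261 and 3429 UMIs in RBC and 961 and 1104 in rods. Thinned to 500 UMIs the shares were 0.471% and 1.54% in RBC and 0.131% and 0.0348% in rods. RGC had 18.1 CPM, and 7.75, 23.1 and 46.4 CPM, so the control lay inside the range and RBC and RGC overlapped. The 61 nuclei labelled astrocytes in CKO replicate 5, the only library with enough of them, had 52.1 CPM from 14 UMIs. All other types had CKO medians of at most 8.68 CPM.

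**Figure D1:**
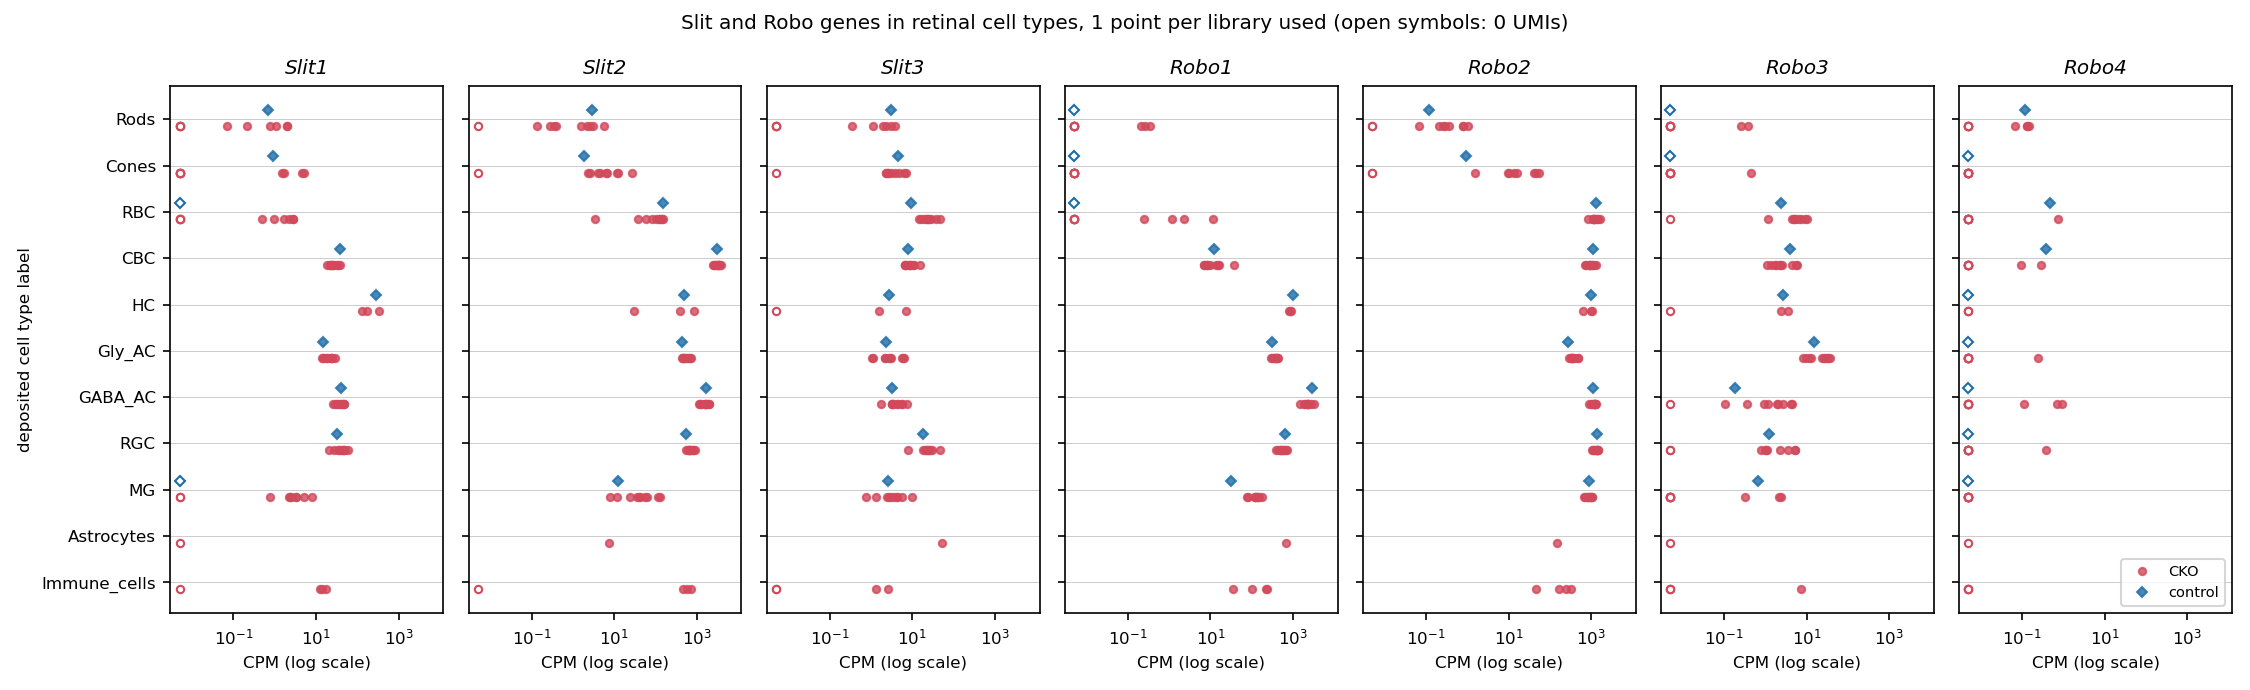
CPM of each gene (log axis) in each retinal cell type label, with 1 point for every library used; the control is a blue diamond, the CKO libraries are red circles, and open symbols at the left edge are 0 UMIs. Slit2 is highest in CBC and Robo1 in GABA_AC, Robo2 is spread over 6 overlapping cell types, and Robo1 in MG is 31.1 CPM in the control and 78.8 to 173 CPM in the CKO libraries.

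Robo1 encodes a receptor that carries the repellent signal into axons and migrating cells. GABA_AC had 2942 CPM in the control and 1506, 2236 and 3228 CPM across 10 CKO libraries, apart from every other type. HC followed with 999 CPM in the control and 816, 839 and 878 CPM in the 3 CKO libraries used, so the control was above those 3. The 7 CKO libraries with fewer HC nuclei ran from 563 to 1086 CPM and reached past the control. RGC had 654 CPM, and 388, 526 and 707 CPM, overlapping with the 685 CPM of astrocytes in CKO replicate 5. Libraries with too few astrocytes had 1119 CPM in the control (35 UMIs, 12 nuclei) and 668 to 1346 CPM in 9 CKO libraries. HC and astrocytes are therefore not ordered. Gly_AC had 311 CPM, and 295, 370.4 and 439 CPM, and was apart from the immune cells and MG below it. Robo1 was at 0 in control rods, cones and RBC, where the median CKO library was also at 0.

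In MG, Robo1 differed most between the groups. The control had 31.1 CPM, from 47 UMIs, with an interval of 22.9 to 41.4 CPM, and the CKO libraries had 78.8, 129 and 173 CPM as lowest, median and highest. The control lay below all 10 CKO libraries, whose median was 4.15 times its value. A UMI was found in 7.21% of 402 control nuclei and 27.8% of 2668 CKO nuclei at median depths of 3171.5 and 3398 UMIs. Rods had 0 of 6621 nuclei in the control, which allows a share of up to 0.0557%, and 0.00872% in the CKO. After thinning to 500 UMIs the shares were 1.23% and 5.35% in MG and 0 and 0.00334% in rods.

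These values can be set against what else differed between the retinal libraries. Batch 1, which held the control, gave 117, 135 and 118 CPM of Robo1 in MG of CKO replicates 1, 2 and 3, batch 2 gave 123 CPM in replicate 5, and batch 3 ran from 78.8 through 138 to 173 CPM. By kit, CKO libraries made with version 4.0 PLUS, as the control was, had 78.8, 117 and 135 CPM, and the 4 made with version 5.0 had 138, 143 and 173 CPM. Xist, whose RNA marks female cells and which was named after the values were seen, was at 6779 CPM in the control and at 6714, 6823 and 5577 CPM in CKO replicates 1, 2 and 7, where Robo1 in MG was 117, 135 and 79.6 CPM. The part of batch, kit and sex in the Robo1 difference was not tested.

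Markers of other cells were also read in MG. The rod list was the largest, at 4566 CPM in the control (all 6 genes, Sag first). Across the CKO libraries it was 3040, 4380.5 and 5467.5 CPM, with 5 of 10 above the control. By control and by CKO median it exceeded the Müller glia list, at 3100 and 3222 CPM. The neuron list was 2220 CPM (6 of 7 genes, Syt1 first) against 1797, 2271 and 3138 CPM, with 6 of 10 above the control. The amacrine list, from the cells richest in Robo1, summed to 850.4 CPM in the control (all 6 genes, Pax6 first at 833 CPM) and to 552, 739.9 and 888 CPM across the CKO libraries, with 2 of 10 above the control. Pax6 alone had 495, 697 and 864 CPM as lowest, median and highest in the CKO libraries. The sum is therefore mostly Pax6 and does not show how the other amacrine genes stood. The astrocyte list (5 of 6 genes in the control, Gja1 at 0, Slc1a3 first) was 1774 CPM against 1575, 1797 and 2048 CPM, with 7 of 10 above the control. The horizontal cell list, with Prox1 first and Onecut1, Lhx1 and Calb1 at 0 in the control, was 178 CPM against 133, 206 and 233 CPM, with 8 of 10 above the control. The fibroblast list was at 2.65 CPM in the control (2 of 6 genes, with Col1a1, Dcn, Lum and Pdgfra at 0) and at 10.6, 14.5 and 31.9 CPM in the CKO libraries, all above it. The bipolar list, from cells rich in Slit2, was 676 CPM (all 8 genes, Prkca first) against 653, 794 and 968 CPM, with 9 of 10 above the control. The part of these lists in the Robo1 and Slit2 differences was not tested.

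**Figure D2:**
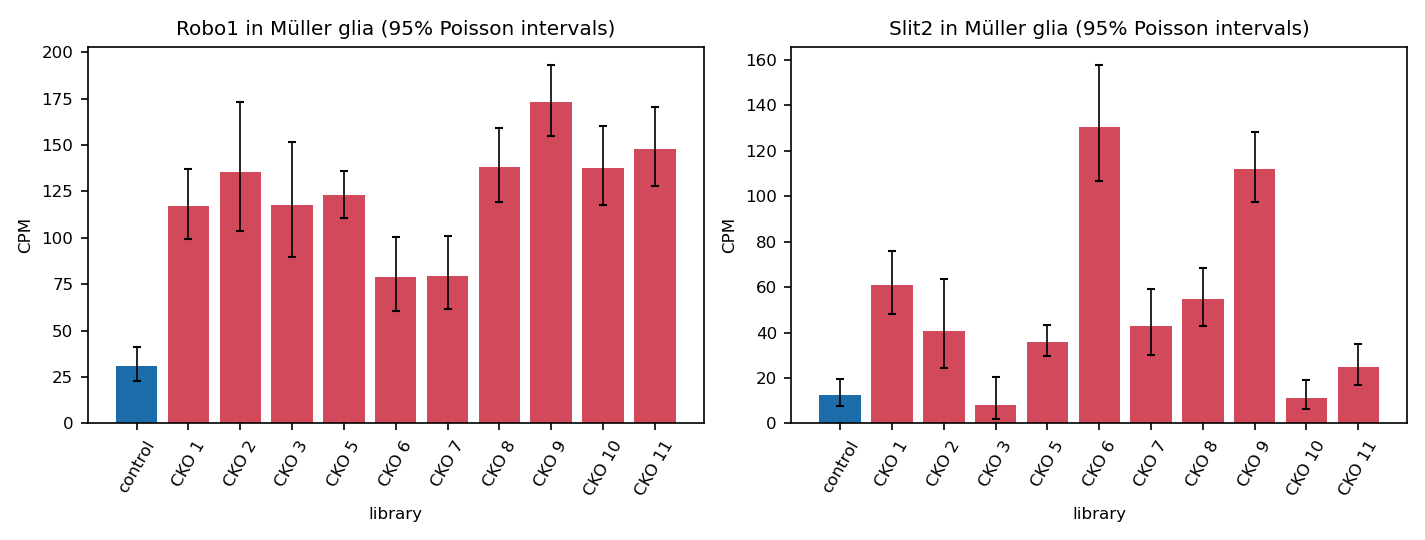
CPM of Robo1 and Slit2 in Müller glia, with 1 bar per library from 0 and 95% Poisson intervals that cover counting error only. Every CKO library is at 78.8 CPM of Robo1 or more against 31.1 CPM in the control, while Slit2 runs from 7.97 to 130.4 CPM in the CKO libraries around 12.6 CPM in the control.

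Robo2 encodes the receptor that, with Robo1, serves most Slit-dependent axon guidance. RGC had 1354 CPM in the control and 1057, 1320.5 and 1486 CPM across the CKO libraries. RBC had 1336 CPM, and 855, 1195 and 1659 CPM. GABA_AC, HC and CBC followed with 1107, 991 and 1091 CPM in the control and CKO medians of 1182, 998 and 922 CPM. MG had 877.5 CPM, and 671, 888 and 1055 CPM. These 6 types overlapped from each to the next, and in all 6 the control lay inside the CKO range. A UMI was found in 98.7% of control and 91.6% of CKO RGC nuclei and in 84.1% and 79.8% of MG nuclei, against 0.0151% and 0.0436% of rods.

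Below MG there was a step. Gly_AC had 282 CPM of Robo2 in the control and 286, 349 and 477 CPM in the CKO libraries, so the control lay below all 10 by a small margin, with a CKO median 1.24 times its value. Immune cells of 4 CKO libraries ran from 46.5 to 317 CPM. Cones had 0.922 CPM, from 1 UMI, in the control and 0, 11.9 and 55.4 CPM in the CKO libraries, with the highest value in replicate 3. Robo2 was thus found at overlapping levels in several retinal types, and MG had it at nearly the same level in both groups, a median ratio of 1.01.

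Robo3, a divergent receptor that modulates the response to Slits in crossing axons, was led by Gly_AC with 14.7 CPM in the control and 8.21, 24.6 and 37.8 CPM in the CKO libraries. The share of Gly_AC nuclei with a UMI was 2.86% and 3.48%, above the 0 of 6621 control rods and 0.00872% of CKO rods. RBC followed at 2.39 CPM against 0, 5.25 and 9.96 CPM, and overlapped with Gly_AC. Robo4 had 18 UMIs in the whole retina. MG had 0 UMIs of Robo4 in every library, and the control's 0 allows up to 2.44 CPM.

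Counted against all genes, the retinal members were as follows. Of 5 members tested among 12992 genes in MG, edgeR's quasi-likelihood test with the kit as covariate called 0 at an adjusted p under 0.05, where it called 0.00770% of all genes. At an unadjusted p under 0.05 it gave 1 member and 782 of the 12992 genes. DESeq2 called 1 member and 108 genes, and gave no adjusted p for 5039 of the 12992. The control was below every CKO library for 1 of the 5, against 9.17% of the tested genes, and above every CKO library for 0, against 5.20%. In the other types, 6 of 35 pairs of member and cell type had the control outside the CKO range, against 13.1% of all pairs. Since the members were selected on this contrast, nothing is read from these counts.

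The single gene that edgeR called in MG was Gm17167, named after its value was seen. The control had 262 CPM and the 10 CKO libraries 28.5, 40.2 and 51.5 CPM, and its log2 fold change was -2.80 with a standard error of 0.202 and an adjusted p of 6.63e-05 (edgeR, Benjamini-Hochberg), lower in 10 of 10. Without CKO replicate 7 the same fit called 6 genes. Of the 108 genes called by DESeq2, 94 were higher in the CKO and 60 had no UMI in batches 1 and 2. The median log2 fold change over all tested genes was 0.03.

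The brain comparison addresses the cells in which Tgfbr1 was deleted. ECs line the vessels, pericytes and vSMCs wrap them, and astrocytes reach them with their end feet. ECs can receive Slit signals through Robo receptors and can also release Slits to their neighbours. With 1 library of each genotype there are no replicates, so every brain ratio compares a pair of libraries, has no test and carries an interval for counting error only.

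In brain ECs, Slit2 had the largest difference of the family. The control had 111 UMIs, 19.1 CPM, and the CKO 44 UMIs, 6.42 CPM, a ratio of 0.336 with an interval from 0.231 to 0.480, or 2.98-fold lower in the CKO. A UMI was present in 2.14% and 0.951% of EC nuclei, at median depths of 1347 and 1491 UMIs, and in 0.297% and 0.160% after thinning. The label Glut_5 had 0 Slit2 UMIs in both libraries at median depths of 713 and 502, and its 0 allows up to 2.31 CPM in the control and 21.1 CPM in the CKO. How much of the EC value is free RNA was not tested. In the control 24 of the 111 UMIs came from 1 nucleus, and in the CKO the most in 1 nucleus was 4 of 44. Of all Slit2 UMIs, ECs held 0.781% (control) and 0.508% (CKO), a small part in these libraries of enriched vessel fragments.

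The other ligands were also low in ECs. Slit3 had 159 and 134 UMIs, 27.4 CPM in the control and 19.6 CPM in the CKO, a ratio of 0.714 (0.563 to 0.904). Slit1 had 4 control UMIs and 0 in the CKO library. Both sit at or near the lowest level among the 21 brain labels, where their intervals overlap with several neighbours.

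Robo4, the endothelial receptor, marked ECs. They had 225 CPM in the control (1306 UMIs, interval 213 to 238) and 178 CPM in the CKO (1220 UMIs, 168 to 188), a ratio of 0.791 (0.731 to 0.856). The next label, vSMCs, which also carried EC markers, had 56.2 and 54.2 CPM, and control pericytes had 41.0 CPM from 5 UMIs, overlapping with vSMCs. In the control ECs stood apart from all other labels. In the CKO they stood apart from vSMCs, while pericytes and microglia, with 0 UMIs from 22 and 11 nuclei, had upper limits of 400.4 and 252 CPM and could not be placed. ECs held 91.6% (exact binomial interval 90.0 to 93.0) of the control's Robo4 UMIs and 98.5% (97.6 to 99.1) of the CKO's. The share of EC nuclei with a UMI was 35.5% and 29.9%, or 12.2% and 9.82% after thinning, against 0 of 2112 control Glut_0 nuclei at a median depth of 5004 UMIs. The EC marker list was also lower in the CKO, 9559.6 against 12788 CPM, and its part in the Robo4 difference was not tested.

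The remaining receptors were low in ECs. Robo1 had 180 and 203 UMIs, 31.0 and 29.6 CPM, with a ratio of 0.955 (0.777 to 1.17), but 0.556 with the mean over nuclei. Robo2 had 112 and 163 UMIs, 19.3 and 23.8 CPM, with a ratio of 1.23 (0.963 to 1.58). Both intervals include 1, and for Robo1 the ratio depended on how nuclei were weighted. Robo3 had 5 and 4 UMIs.

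Among 5 members with at least 50 UMIs in ECs over both libraries, 0 were 2-fold or more higher in the CKO, against 9.45% of 11351 genes, and 1, Slit2, was at 0.5-fold or less, against 3.90%. The genes were selected on this contrast, and nothing is read from the counts. Rescaling by TMM, which equalises the bulk of genes, shifted the median log2 ratio of all EC genes by -0.10, and the Slit2 ratio was then 0.312. Averaging CPM over nuclei, which gives every nucleus the same weight, gave 0.538. Slit2 was lower in the CKO under each scaling, and past 2-fold under all but the average over nuclei.

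The same brain libraries show where ligands and receptors were found outside ECs. Labels that begin with Glut and GABA, apart from Glut_20, whose markers go against its name, and GABA_22, which had nearly as much of the OPC list (1710.4 and 1924.5 CPM) as of the neuron list (1913 and 2081 CPM), are read as glutamatergic and GABAergic neurons, and the rest are glia, mural cells and the CP labels. VEcadCreER is not meant to act in these cells. Levels are given as control then CKO.

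Slit1 was a neuronal transcript here too. Glut_17 had 262 and 277 CPM, Glut_11 163 and 259.5 CPM, Glut_1 69.0 and 88.4 CPM and Glut_0 57.3 and 77.2 CPM. These 4 labels stood apart from each other in the control, and from Glut_14 (30.8 CPM) downward the intervals overlapped. Glut_19 had 17.2 and 49.8 CPM, from 24 and 50 UMIs, a ratio of 2.89 (1.74 to 4.92). CP_6 had 17 and 3 UMIs, a ratio of 0.426 whose interval, 0.0800 to 1.47, includes 1. Slit1 was at 0 UMIs in both libraries in GABA_22, Glut_5, microglia and pericytes.

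Slit2 was led by the label "glia" with 888 and 1400.3 CPM (ratio 1.58, 1.44 to 1.73), the label with fibroblast markers. CP_8 followed with 792 and 957 CPM, apart from both neighbours. Glut_17, Glut_14 and Glut_1 had 488, 446 and 431 CPM in the control and 415, 466 and 464 CPM in the CKO, with overlapping intervals. Glut_0 (334 and 378 CPM) overlapped with CP_6 (316 and 278 CPM) in the control only, and GABA_9 (210.1 and 178 CPM) stood apart below them. Oligodendrocytes, astrocytes, Glut_21, Glut_11, vSMCs and Glut_19 overlapped between 104 and 82.6 CPM in the control, and ECs overlapped with Glut_20 and OPCs near the bottom. Apart from ECs, no label with at least 20 UMIs passed 2-fold for Slit2.

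Slit3 was led by Glut_17 at 2659 and 2919 CPM, Glut_5 at 2458 and 2172 CPM, GABA_9 at 1396 and 1508 CPM and Glut_0 at 1175 and 1280 CPM, each apart from the next in the control. CP_8 had 576 and 460 CPM and Glut_19 452.5 and 340 CPM, and from Glut_1 down most neighbours overlapped. In oligodendrocytes the control had 84 UMIs, 54.2 CPM, and the CKO 0 of 728425 UMIs. Taken as at most 3 UMIs, this 0 is at least 13.1-fold lower, but its interval reaches past that floor, to 5.06 CPM. The ratio at the floor was 0.076, or 0.084 with TMM and 0.107 with deeper nuclei. In Glut_20 the control had 62 UMIs, 118 CPM, and the CKO 0, at least 6.98-fold lower if taken as at most 3 UMIs. The interval of this 0 also reaches past the floor, to 20.7 CPM. The ratio at the floor was 0.143, or 0.125 with TMM and 0.194 with deeper nuclei. OPCs had 229 and 383 CPM (1.68, 1.25 to 2.24), and vSMCs 321 and 170.3 CPM (0.530, 0.380 to 0.722). Microglia had 15 and 14 UMIs, a ratio of 5.10 (2.28 to 11.3), or 2.30 with TMM and 1.996 with deeper nuclei, where the CKO value rests on 11 nuclei led by neuron markers.

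Robo1 was highest in Glut_19 with 4662 and 5064 CPM, followed by GABA_9 (2447 and 2534 CPM), Glut_14 (2290 and 2379 CPM) and Glut_1 (2009 and 2254 CPM), each apart from the next in the control. OPCs, Glut_0, the label "glia" and Glut_17 came next with 1359.8, 1283, 1227 and 1189 CPM in the control and overlapped. In the CKO these labels diverged: OPCs had 814 CPM, a ratio of 0.599 (0.503 to 0.709), and the label "glia" 525 CPM, a ratio of 0.428 (0.375 to 0.487; 0.368 with TMM, 0.307 with the mean over nuclei and 0.538 with deeper nuclei), whereas Glut_0 had 1582 CPM and Glut_17 1205 CPM. Oligodendrocytes had 202 and 64.5 CPM (0.320, 0.230 to 0.436) and vSMCs 271 and 96.8 CPM (0.357, 0.229 to 0.535). Robo1 was therefore lower in the CKO in these 4 labels and close to the control in the neuronal labels richest in it.

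Robo1 was past 2-fold higher in the CKO in 3 labels. CP_8 had 262 and 527 CPM (2.01, 1.76 to 2.29), with 60 of 377 CKO UMIs from 1 nucleus, and a ratio of 1.85 with TMM, 2.89 with deeper nuclei and 2.84 with the mean over nuclei. Glut_5 had 60 and 35 UMIs, 37.6 and 200.1 CPM (5.32, 3.40 to 8.20), and GABA_22 had 20 and 18 UMIs, 71.0 and 403 CPM (5.68, 2.83 to 11.3). The last pair rest on few UMIs, with 251 Glut_5 and 53 GABA_22 nuclei in the CKO. Astrocytes had 96.1 and 158 CPM (1.65, 1.23 to 2.19). ECs and control pericytes were at the low end, where control ECs overlapped with Glut_5. CKO pericytes, with 0 UMIs and an upper limit of 400.4 CPM, could not be placed.

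Robo2 was highest in Glut_14 (1450.3 and 1462 CPM) and GABA_9 (1388 and 1573 CPM), which overlapped, followed by Glut_0 (1106 and 1173 CPM) and Glut_1 (1056 and 1102 CPM), each apart from the next in the control. Glut_17, Glut_21, Glut_11 and Glut_5 lay between 885 and 687 CPM in the control. The label "glia" had 508 CPM from 881 UMIs in the control and 88.1 CPM from 44 UMIs in the CKO, a ratio of 0.173 (0.125 to 0.235), and a share of nuclei of 30.2% and 4.06%, or 19.2% and 2.45% after thinning. This was the lowest ratio of all pairs of gene and label with UMIs in both libraries and at least 20 UMIs. Oligodendrocytes had 55 and 10 UMIs (0.387, 0.176 to 0.767), OPCs 86 and 76 UMIs at 165 and 364 CPM (2.20, 1.60 to 3.04), and GABA_22 54 and 27 UMIs (3.15, 1.91 to 5.09), with 17 of the 54 from 1 nucleus. Several of these ratios depended on the method: the label "glia" had 0.259 with deeper nuclei and 0.0880 with the mean over nuclei, oligodendrocytes 0.133 with the mean over nuclei and 0.567 with deeper nuclei, OPCs 1.73 with TMM, and GABA_22 1.65 with the mean over nuclei.

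Robo3 was led by Glut_0 with 91.7 and 103 CPM, then Glut_17 with 67.0 and 84.3 CPM, which overlapped in the control only with GABA_9 at 50.8 and 44.3 CPM, then Glut_11 at 30.1 and 37.3 CPM. Glut_21 had 16 and 5 UMIs, a ratio of 0.432 whose interval, 0.124 to 1.23, includes 1. In both libraries it was at 0 in GABA_22, Glut_20, Glut_5, OPCs, astrocytes, microglia and pericytes. Robo3 was thus mainly a transcript of neurons in this tissue.

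Over all 7 genes, 92 pairs of gene and label had at least 20 UMIs, and 17 were past 2-fold, 7 higher and 10 lower in the CKO, against 16.2% of the pairs of all genes. The median ratio of the 92 pairs was 1.06. TMM scaling gave 19 pairs past 2-fold, 5 higher and 14 lower, with 15 of the 17 among them. With deeper nuclei 12 of the 17 were past 2-fold and with the mean over nuclei 11, where 2 of the 17 could not be measured in either case, so part of these calls depended on the method. Nothing is read from the count, as the genes were selected on the contrast.

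Depth and markers of other cells moved along with several of these ratios. In the label "glia" the nuclei went from 1227 to 419 and the median UMIs per nucleus from 879 to 582, the EC list from 949 to 561 CPM and the OPC list from 499 to 298 CPM. In oligodendrocytes the neuron list went from 244 to 67.3 CPM and the EC list from 137 to 1.37 CPM, at median depths of 2328 and 954.5 UMIs. In OPCs the neuron list was 1344 and 2509 CPM and the astrocyte list 294 and 642 CPM. In vSMCs the fibroblast list was 1594 and 3108 CPM and the neuron list 1006 and 612 CPM, with 449 and 103 nuclei. In Glut_5 the astrocyte list was 9.41 and 194 CPM and the OPC list 5.64 and 85.7 CPM. The brain control also had 1963 CPM of Xist and 64.5 CPM of the male gene Uty, named after the values were seen, where the CKO had 1.29 and 133 CPM, so sex composition differed as well. The part of these differences in the Slit and Robo ratios was not tested, and sex, pool and genotype cannot be told apart with 1 library each.

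**Figure D3:**
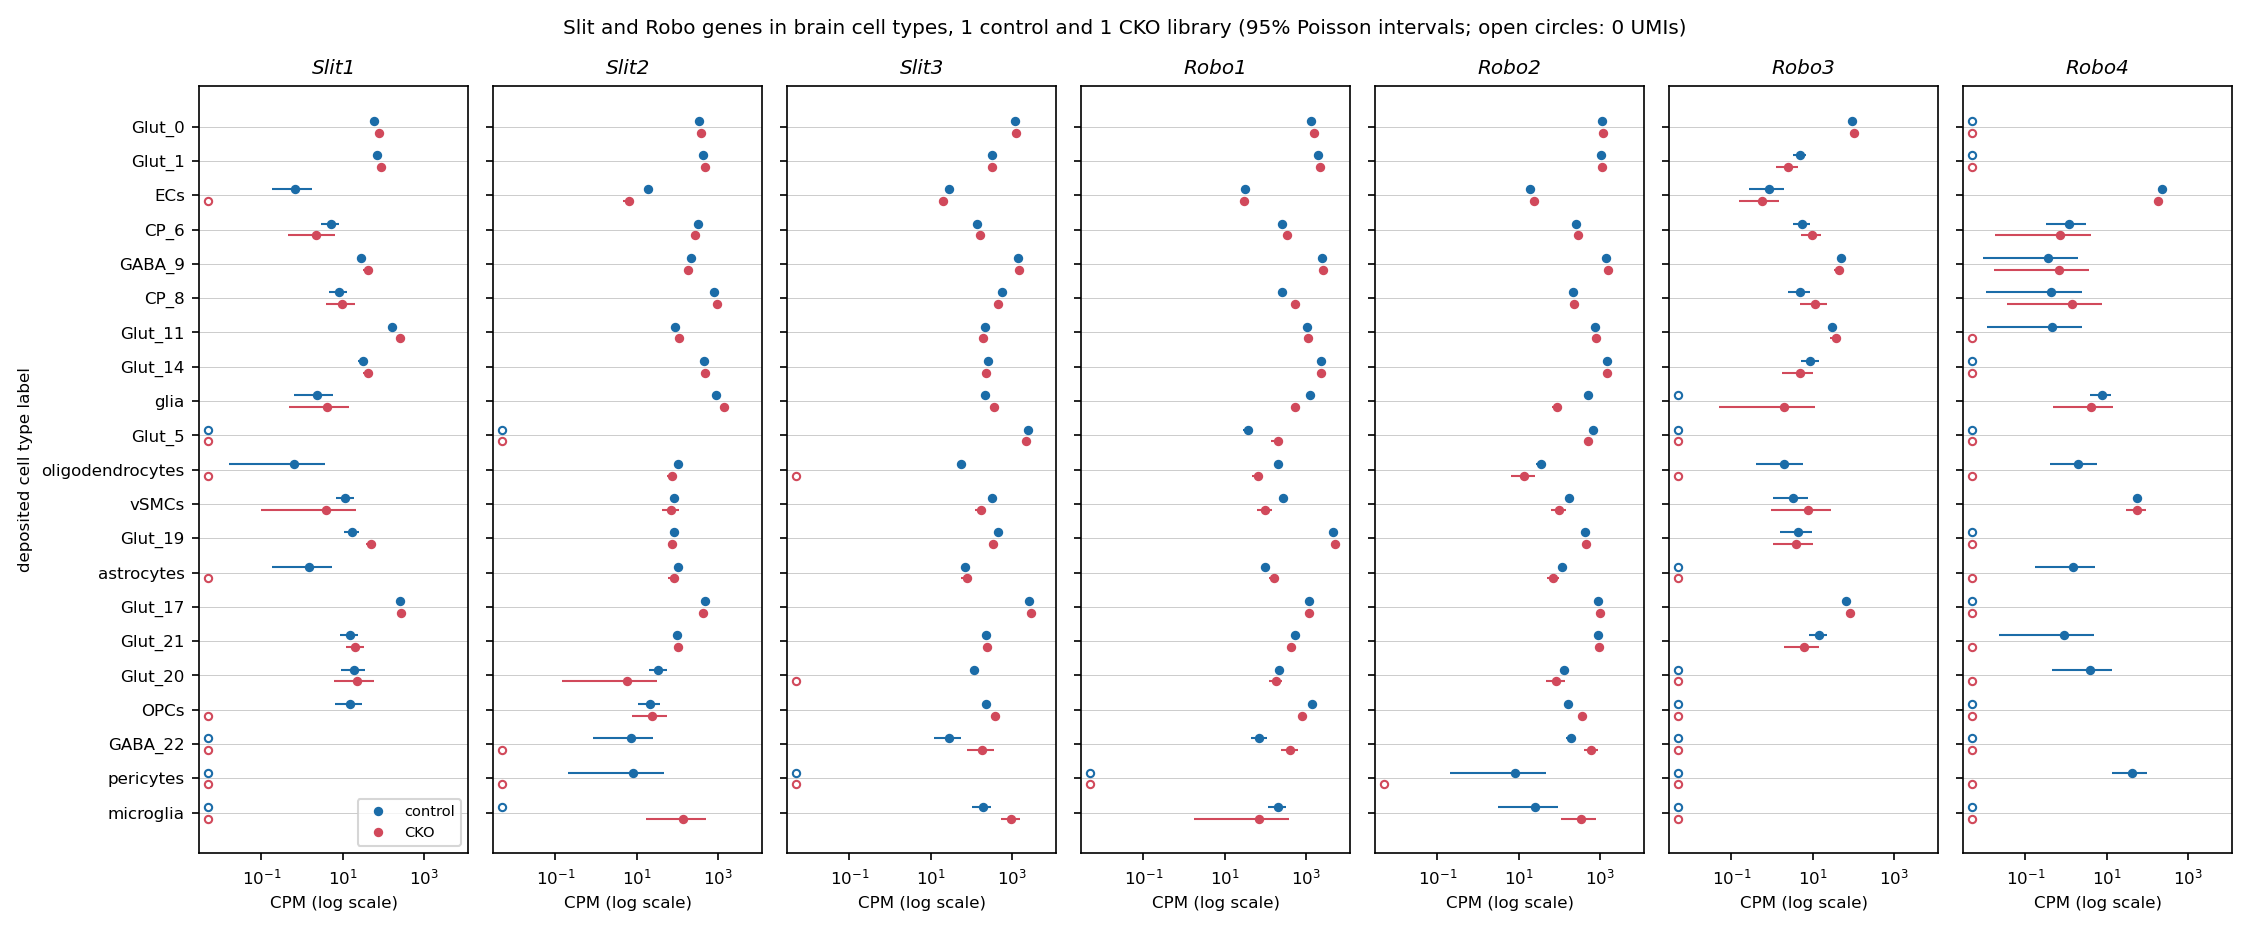
CPM of each gene (log axis) in the 21 brain labels of 1 control (blue) and 1 CKO library (red), with 95% Poisson intervals for counting error only and open circles at the left edge for 0 UMIs. Robo4 is highest in ECs at 225 and 178 CPM, Slit2 in ECs is 19.1 and 6.42 CPM, and Robo2 in the label "glia" is 508 and 88.1 CPM.

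Slits and Robos work with other molecules. Syndecans and glypicans hold Slit at the cell surface, netrins and their receptors form a neighbouring guidance system that cross-talks with Robos, and srGAPs, Myo9b, Pak kinases and Enah carry the signal to the cytoskeleton. A list of 49 such genes was compared in the same way.

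In brain ECs, 39 of the 49 had at least 50 UMIs. Of these, 3 were past 2-fold higher, 1 was past 2-fold lower and 35 lay within, and the median log2 ratio was 0.04, against 1073 higher, 443 lower, 9835 within and a median of 0.14 over all 11351 genes. Sdc4, a syndecan, had 6.38 and 18.2 CPM (37 and 125 UMIs; ratio 2.86, 1.97 to 4.25). Myo9b, a motor protein that binds Robo1, had 11.4 and 37.9 CPM (66 and 260 UMIs; 3.34, 2.54 to 4.44). Enah, an actin regulator, had 17.9 and 38.1 CPM (104 and 261 UMIs; 2.12, 1.69 to 2.69), or a ratio of 1.98 with TMM scaling. Ntn4, a netrin of basement membranes, had 13.1 and 5.55 CPM (76 and 38 UMIs; 0.423, 0.279 to 0.633). So 1 of 9 measured co-receptors, 2 of 18 effectors and 1 of 7 netrins and netrin receptors were past the fold.

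In MG, 43 of the list were tested, and none of them was called by edgeR in either direction or by DESeq2. DESeq2 gave no adjusted p for 5039 of the 12992 tested genes, which may include some of these 43. The fold change was above 0 for 24 and below 0 for 19, with a median log2 fold change of 0.05 against 0.03 over all tested genes. The 3 with the smallest p did not pass. Unc5b, a netrin receptor, had 18.5 CPM in the control and 27.9, 38.2 and 64.1 CPM in the CKO libraries, a log2 fold change of 1.22 (SE 0.392, edgeR adjusted p 0.686), higher in 10 of 10. Pak1, a kinase downstream of Rac, had 15.2 CPM and 21.9, 38.0 and 52.4 CPM, a log2 fold change of 1.30 (SE 0.448, edgeR adjusted p 0.707), higher in 10 of 10. Unc5c, another netrin receptor, had 1982 CPM and 1228, 1494 and 1810 CPM, a log2 fold change of -0.47 (SE 0.184, edgeR adjusted p 0.779), lower in 10 of 10. For all 3 the control lay outside the CKO range, which choosing them by p made likely, and other genes of the list shared this. Over all genes tested in MG the control was below every CKO library for 9.17% and above every one for 5.20%, so nothing is read from it.

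A gene's pattern over cell types can be described by the genes that resemble it most. Likeness was the Pearson correlation of log2(CPM + 1) over the 21 brain labels of the control library, among 14448 genes with at least 200 UMIs, or over the 11 retinal labels, among 17303 genes. The points share a library or a set of libraries and differ in depth, and no p is given.

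In the brain, Robo4 was most like Tmem204 (r 0.993, and 0.921 in the CKO library), Map3k11 (0.979, 0.682) and Flt4 (0.979, 0.963), which were highest in ECs at 225, 57.2 and 96.9 CPM. Slit1 was most like D630023F18Rik (0.956, 0.775), Lrfn2 (0.949, 0.916) and Dram1 (0.940, 0.902). Slit2 resembled A930007I19Rik (0.904, 0.753), Urgcp (0.903, 0.659) and Pfas (0.900, 0.582). Slit3 was most like Epha3 (0.913, 0.825), Stxbp5l (0.911, 0.862) and Kcnj6 (0.905, 0.801). Robo1 was most like Tmem175 (0.934, 0.840), Gm47283 (0.924, 0.230) and Vezt (0.909, 0.408), the last pair of which did not resemble it in the CKO library. Robo2 was most like Slc7a14 (0.922, 0.790), Fam135b (0.922, 0.782) and Galntl6 (0.910, 0.926), and Robo3 like Ltk (0.935, 0.822), Zfp831 (0.932, 0.861) and A830031A19Rik (0.914, 0.823).

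In the retina, Slit1 was most like Dcx (0.971), Tenm1 (0.967) and Slitrk1 (0.965), which were all highest in HC. Slit2 resembled Magohb (0.980), Il1rapl2 (0.978) and Prr16 (0.972), all highest in CBC. Slit3 was most like Lrrc55 (0.958), Gm30606 (0.925) and Mtfr1l (0.909), all highest in astrocytes, a label that rests on 1 library. Their levels there were 11.2, 3.72 and 26.1 CPM. In that label 14 UMIs of Slit3 made 52.1 CPM, so these levels rest on few UMIs. Robo1 resembled Ppp1r16b (0.976), Fam13a (0.961) and Vav3 (0.959). Robo2 was most like Ptprd (0.986), Hs3st5 (0.978) and Rims1 (0.974), and Robo3 like 2810455O05Rik (0.926), Chodl (0.883) and Myrfl (0.869). Robo4 had too few retinal UMIs for this comparison.

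Among the members themselves, Slit1 and Robo3 (r 0.788), Slit3 and Robo2 (0.770) and Robo1 and Robo2 (0.753) ran together over the brain labels of the control library, with 0.792, 0.8004 and 0.885 in the CKO library. Robo4 went the other way, with -0.601 against Robo2 (control) and -0.305 (CKO). In the retina, Slit1 and Slit2 had the highest correlation at 0.804, followed by Slit2 and Robo2 at 0.789.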

How the data were processed

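The deposited matrices hold counts: the authors aligned reads with PIPseeker (3.3.0) to GRCm39, used CellBender (0.3.2) against empty droplets and ambient RNA, took out doublets with SOLO (scVI-tools 1.2.2-post2) and by hand, also dropping clusters of CKO replicates 4 and 5, and deposited raw UMI counts with cell type labels; no further doublet removal was made here. UMIs were summed per label and library. Members and lists were chosen with earlier results of these data known. MG sums of 1 control and 10 CKO libraries (CKO replicate 4 had 2 MG nuclei) were fitted with edgeR (4.0.16), TMM factors and the kit as covariate; the single control was assumed to vary like the CKO libraries. DESeq2 (1.42.0) was the other tool. Brain ratios needed 20 UMIs over both libraries (50 in ECs), with exact conditional binomial intervals; CPM intervals were exact Poisson and shares exact binomial, all for counting error only. Genes are named by this rule: the 7 members, list genes past 2-fold in ECs, the 3 smallest p in MG if none pass, the 3 most alike genes per member and table, Tgfbr1, and the leading gene of each marker list used. Alternatives covered scaling, filters, kits, batches, libraries, nucleus depth and tool. Code (Python 3.11.15, scipy 1.17.1, pandas 2.3.3, R 4.3.3) was tested on simulated data.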

Additional observations from a re-analysis of the deposited data

Results flagged for a closer look

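In 3 of 42 groups of retinal CKO libraries, 1 library stood far from the others; chance flags about 1 in 20 groups. Slit2 in cones was 27.6 CPM in CKO replicate 10, from 18 UMIs in 112 nuclei, where the next highest library had 12.3 CPM. Slit3 in CBC was 15.5 CPM in CKO replicate 2, from 31 UMIs, where the next had 11.1 CPM. Robo1 in CBC was 38.3 CPM in CKO replicate 3, from 85 UMIs, where the next had 16.4 CPM.

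CKO replicate 4 was not used for MG, since it had 2 MG nuclei with 705 UMIs in all. Those nuclei held 8 UMIs of Slit2 and 6 of Slit3, more per UMI than the control's 12.6 and 2.65 CPM. No cause was tested.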

How the results depend on the processing

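The edgeR count of 1 gene in MG became 17 with the control's batch only, 4 without a filter on low counts, and 108 with DESeq2; leaving out each CKO library in turn it ran from 1 to 6, with the 6 reached without CKO replicate 7. Among genes with UMIs in batches 1 and 2 and in batch 3, an alternative chosen after seeing the data, DESeq2 called 48. It was 1 with no covariate, with batch as covariate, with DESeq2's size factors, with the deeper nuclei only and with a minimum of 20 MG nuclei, which took the same libraries.

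In brain ECs, 1516 genes were past 2-fold, 70.8% of them higher. The count was 2809 (78.6% higher) with the mean over nuclei, 564 of 1809 genes (50.4% higher) in ECs with few pericyte marker UMIs, 611 with a higher minimum of UMIs, which tests fewer genes, and 3486 and 273 at folds of 1.5 and 4. TMM gave 1471, 60.6% higher. ECs with few pericyte marker UMIs were 485 of 2475 and 188 of 2944 nuclei with 360440 and 142537 UMIs; they gave 0 members past 2-fold in place of 1, because only Robo4 reached the minimum of 20 UMIs there, with a ratio of 0.804, so Slit2 was not measured.

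In the retina, including MG, the control was outside the CKO range in 7 of 38 pairs of member and cell type, in 14 of 31 with the control's batch only, which has fewer CKO libraries to span a range, and in 4 with the mean over nuclei. Those 4 were all among the 7, so the rest of the 7 lost this position when nuclei were weighted equally. With deeper nuclei 6 of the 7 were outside the range. Without CKO replicate 5, chosen after seeing the data, the count of pairs was 9. The other causes were not tested. Of 115 single values recomputed, 100 were counted as the same and 15 as moved. The measure was the spread between replicates for retinal ratios and the counting interval for brain ratios. For ratios with a library at 0 it was whether 2-fold was still passed, and for list genes in MG whether the call changed. Values near 1 crossed it: Robo1 in brain ECs (0.955) was 1.06 with deeper nuclei, and Robo2 in MG (1.01) was 0.927 with version 4.0 PLUS only. The Robo1 median ratio in MG was lowest at 3.77 and highest at 5.15. No paired analysis was possible because there is a single control library in each tissue.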
